A study of Mus musculus with 9 samples.

Results

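The liver clears drugs, bile pigments and other organic anions with carriers at 2 faces of the hepatocyte, and the mRNAs of 9 such transporters were followed here in cultured primary mouse hepatocytes. The genes were chosen by name and make up 9 of the 56691 genes in the table. They are the uptake carriers Slco1b2, Slco1a1, Slco1a4, Slco2b1 and Slc22a7, the canalicular exporters Abcc2 and Abcg2, and the basolateral exporters Abcc3 and Abcc4. The hepatocytes came from Mus musculus, with no strain, age or genotype in the labels, and had 4 h to attach and 24 h in fresh DMEM. There were 3 libraries labelled DMSO (the solvent control), 3 labelled Bobcat339 (sold as an inhibitor of the TET dioxygenases, enzymes that oxidise methylated cytosine in DNA) and 3 labelled 4-octyl itaconate (written 4OI, the octyl ester of itaconate, a metabolite known from macrophages that enters cells in this form). No source used here states the doses or treatment times, and the treatment protocol also names Remodelin hydrobromide, given or not, without saying to which libraries. The 3 4OI titles share 1 hepatocyte number while the 3 DMSO titles carry different ones, and the labels leave unsaid whether replicates are separate animals or cultures. The p-values therefore speak only of the spread among these 9 libraries, which may be technical.

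The members of the organic anion transporting polypeptide (OATP) family, encoded by Slco genes, and the organic anion transporter encoded by Slc22a7 sit in the sinusoidal membrane and bring bilirubin, bile acids, steroid conjugates and drugs into the hepatocyte from blood. Inside the cell many of these compounds are joined to glucuronate, sulphate or glutathione. The ATP-driven pumps MRP2 (Abcc2) and BCRP (Abcg2) then push the conjugates across the canalicular membrane into bile. MRP3 (Abcc3) and MRP4 (Abcc4) work at the opposite, blood-facing membrane and return conjugates and bile acids to blood, and they are known as a safety route when flow into bile is blocked. Several of the genes are known targets of the nuclear receptors PXR, CAR and FXR and of the oxidative stress factor NRF2.

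By matching the deposited Ensembl identifiers to GENCODE M21 on mouse build GRCm38, 4 of the 9 genes were placed on chromosome 6. Slco1b2 (ENSMUSG00000030236) lies at chr6:141629518-141686646 on the plus strand. Slco1a4 (ENSMUSG00000030237, chr6:141805440-141856199) and Slco1a1 (ENSMUSG00000041698, chr6:141907282-141946962) follow it on the minus strand. Abcg2 (ENSMUSG00000029802) is on the same chromosome at chr6:58584523-58695676. Slco2b1 (ENSMUSG00000030737) lies at chr7:99657804-99711340, Slc22a7 (ENSMUSG00000067144) at chr17:46432183-46438457 and Abcc2 (ENSMUSG00000025194) at chr19:43782192-43840740. Abcc3 (ENSMUSG00000020865) lies at chr11:94343295-94392997 and Abcc4 (ENSMUSG00000032849) at chr14:118482692-118706219. Slco1a1 and Slco1a4 belong to a cluster of close paralogues, and no source used here says how reads shared between paralogues were counted. Only Slco2b1 shares exon bases with other annotated genes: 7.91% of its exon bases with Gm15635 and 1.31% with Gm34280, both on the opposite strand and with at most 34 and 11 deposited counts in a library.

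The promoters of these genes are shown because TET enzymes act at CpG sites and because these genes differ in CpG content. RefSeq windows on GRCm38.p6 were at hand for 7 of the 9 genes, in 12 windows, but not for Slc22a7 and Abcc3. The 250 bases before each start were read on the coding strand. In the 3 sequences that follow, CpG dinucleotides are in capitals and all other bases in lower case.
Slco1b2, chr6:141629268-141629517, plus strand: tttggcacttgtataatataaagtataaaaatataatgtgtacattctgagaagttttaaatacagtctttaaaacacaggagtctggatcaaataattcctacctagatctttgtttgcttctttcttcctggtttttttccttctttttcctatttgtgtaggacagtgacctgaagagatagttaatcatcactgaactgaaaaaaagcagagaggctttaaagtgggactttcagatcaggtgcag
Abcc2, chr19:43782058-43782191, plus strand: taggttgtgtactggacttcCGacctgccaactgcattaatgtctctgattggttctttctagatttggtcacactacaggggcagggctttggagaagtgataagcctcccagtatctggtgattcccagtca
Abcc4, chr14:118706220-118706469, minus strand: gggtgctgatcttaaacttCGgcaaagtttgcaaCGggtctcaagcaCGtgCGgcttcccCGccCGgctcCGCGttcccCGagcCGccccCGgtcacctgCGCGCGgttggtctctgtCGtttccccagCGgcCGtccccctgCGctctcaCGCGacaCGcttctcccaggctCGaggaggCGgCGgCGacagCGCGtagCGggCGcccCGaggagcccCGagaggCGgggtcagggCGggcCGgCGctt
The Slco1b2 sequence holds 0 CpG, and so do the windows of Slco1a1 and Slco1a4. The Abcc2 stretch, the 134 bases before its first annotated exon, holds 1 CpG. The Abcc4 sequence holds 35, more than 97.0% of 32851 mouse windows, whose median was 6. GC content ran from 33.6% in Slco1b2 through 45.6% in the whole Abcc2 window to 72% in the printed Abcc4 sequence, beside a median of 52.4%. Slco2b1 had 3 windows with 2, 3 and 4 CpG, and Abcg2 had 3 windows with 3, 10 and 23. Abcc4 had a second window, not printed, with 4 CpG and a GC content of 47.6%. DNA methylation was not measured in these libraries.

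Short motifs were searched on both strands of the same windows. GCGTG, the core bound by the aryl hydrocarbon receptor, was found 2 times in the Abcc4 sequence and in 28.2% of all windows. Abcc4 also held 3 matches to the GC box GGGCGG, present in 32.7% of windows, and 1 to TGACNNNGC, the core bound by NRF2, present in 10.2%. That last match ends right before a GC box and does not overlap it. AGGTCA, the core letters of nuclear receptor sites, present in 14.0% of windows, was found 1 time in Slco1b2, 2 times in Slco1a1, 1 time in Abcc2 beyond the printed stretch, and in 2 of the 3 Abcg2 windows. The TATA box letters TATAAA, present in 12.4% of windows, were found 2 times each in Slco1b2 and Slco1a1. GTTAATNAT, the letters of an HNF1 site, present in 0.737% of windows, was found 1 time in Slco1b2 and in no other window of these genes. Abcg2 had GC boxes in 2 of its windows. The whole 250-base Abcc2 window held 1 match to TGACNNNGC beyond the printed stretch, and the second Abcc4 window held 1. A match is only a match of letters.

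In the DMSO libraries the exporters dominated. Levels are given in CPM, counts scaled to a common library size by TMM, mean ± SD over 3 libraries, and levels of different genes are compared only as CPM per kilobase of annotated exon. Per kilobase, Abcc3 (99.4 ± 10.8) and Abcc2 (88.2 ± 9.10) stood first and overlapped each other. Abcc4 followed at 31.0 ± 2.72 and Abcg2 at 12.5 ± 0.991, without overlap between neighbours. The first uptake carrier, Slco1a1, reached 5.88 ± 1.73 CPM per kilobase. Slc22a7 (1.78 ± 0.0927), Slco1b2 (1.38 ± 0.391) and Slco2b1 (0.954 ± 0.175) came next, with Slco1b2 and Slco2b1 overlapping. Slco1a4, at 0.0551 ± 0.0236, was the lowest. Exon lengths come from GENCODE M21, which may not be the annotation used for counting.

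**Figure D1:**
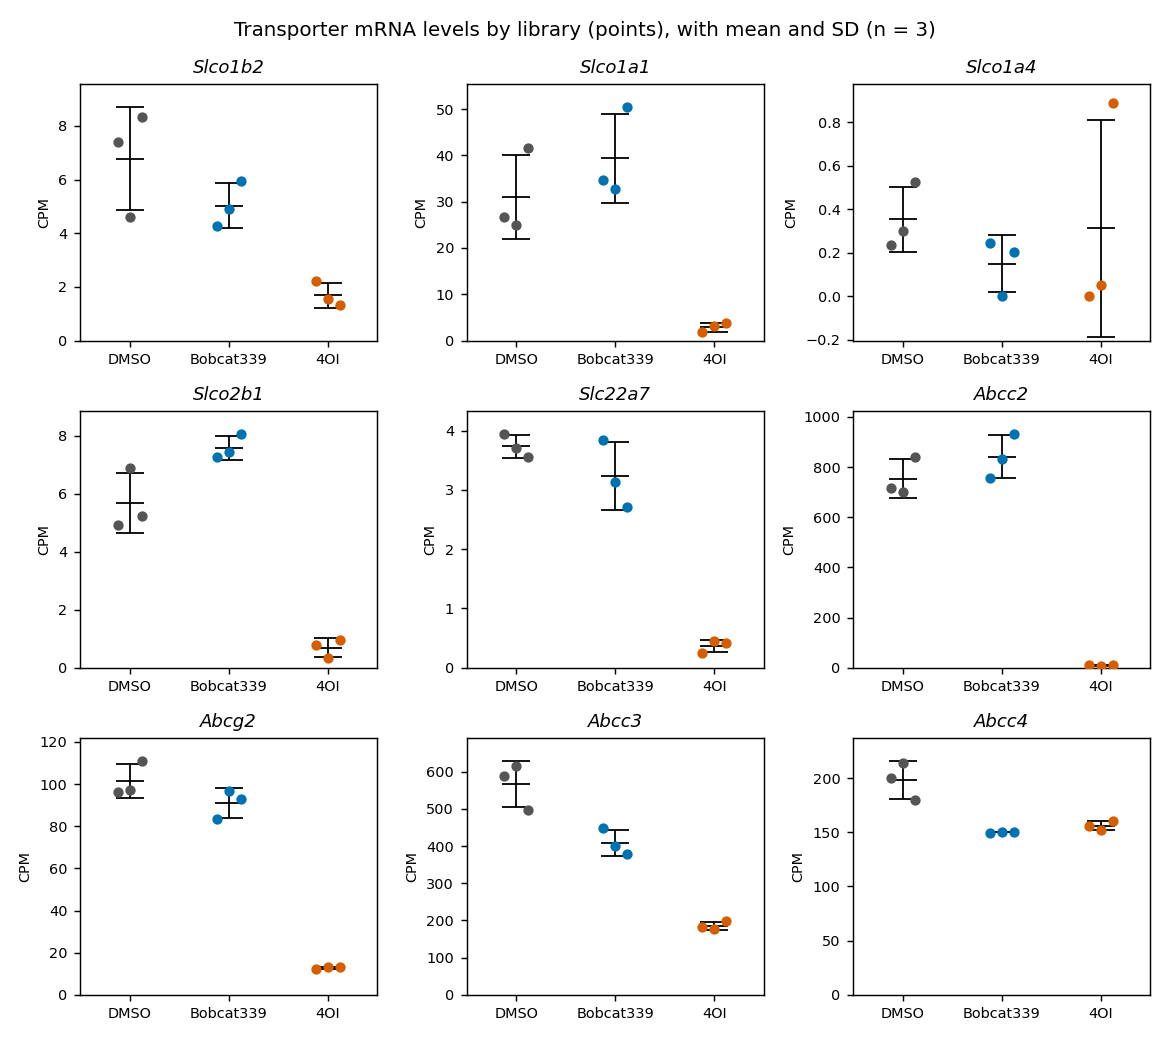
Level of each transporter mRNA in the 9 libraries, in CPM on a linear axis, by group on the horizontal axis, with points for libraries and bars for the mean and SD of 3 libraries. In 8 of the 9 panels every 4OI point lies below every DMSO point, whereas the Bobcat339 points lie below the DMSO points in 2 panels, Abcc3 and Abcc4, and above them in 1, Slco2b1.

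Library totals ran from 67434312 to 83902788 deposited counts, and 4 deposited counts were assumed to be worth 1 read pair, which would put 3 read pairs at 12 counts. That factor rests on an excess of multiples of 4 among low values, which most low values were not. Over 18379 genes tested, 2136 rose and 1666 fell with Bobcat339 against DMSO, while 6121 rose and 5590 fell with 4OI. Under Bobcat339 the share of rises among calls was 56.2%, but 46.1% with RLE scaling and 45.2% with DESeq2. With library size as the only scaling, the median log2 fold change of all genes for 4OI against Bobcat339 moved by 0.12. The label "hepatocyte" was checked against 16 hepatocyte markers, whose summed level was 38205 to 39100 CPM in DMSO, 34961 to 36813 CPM in Bobcat339 and 2504 to 2757 CPM in 4OI libraries. The 4OI libraries carried higher summed levels of 9 endothelial markers (3169 to 3295 CPM, against 113 to 131 in DMSO), 12 macrophage markers (5815 to 6031, against 666 to 739) and 9 stellate cell and fibroblast markers (218 to 228, against 53.9 to 58.2). In Bobcat339 libraries the endothelial sum was 102 to 120 CPM, the macrophage sum 310 to 348 CPM and the stellate sum 49.3 to 50.5 CPM. The 6 cholangiocyte markers summed to 111 to 124 CPM in DMSO, 97.0 to 137 in Bobcat339 and 32.9 to 37.5 in 4OI. Their log2 fold changes with Bobcat339 ran from -1.60 to 1.18 with a median of -1.37, which the sum does not show. Of the 6, 1 was called with Bobcat339, as a rise, beside 11.6% of all genes. The 7 lymphocyte and neutrophil markers summed to at most 5.32 CPM in every library, with Cd3e among those at 0 in all DMSO libraries, Ms4a1 at 0 in all Bobcat339 libraries and Nkg7 at 0 in all 4OI libraries. No marker of the other lists was at 0 in all libraries of a group. Markers of intestinal epithelium, which also carries Abcc2, Abcc3, Abcg2 and Slco2b1, summed to 158 to 188 CPM in DMSO, to 37.7 to 141 in Bobcat339, where replicate 1 was the high one, and to 1.71 to 11.4 in 4OI. The part of these differences in the transporter results was not tested, and in bulk RNA fewer cells of a type and less RNA per cell cannot be told apart.

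With 4OI, 8 of the 9 transporters fell against DMSO and none rose (edgeR quasi-likelihood test, adjusted p under 0.05), beside 30.4% of all genes tested that fell and 33.3% that rose. The median log2 fold change was -2.98 over the 9 transporters and 0.08 over all genes. With Bobcat339, 2 of the 9 fell and none rose, beside 9.06% of all genes that fell and 11.6% that rose, and the median was -0.21 over the 9 against -0.01 over all genes. In either direction, 63.7% of all genes were called for 4OI and 20.7% for Bobcat339. The groups did not overlap for 8 of 9 transporters with 4OI, beside 71.5% of all genes, and for 3 of 9 with Bobcat339, beside 36.9%. The comparisons with DMSO share the same 3 DMSO libraries.

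**Figure D2:**
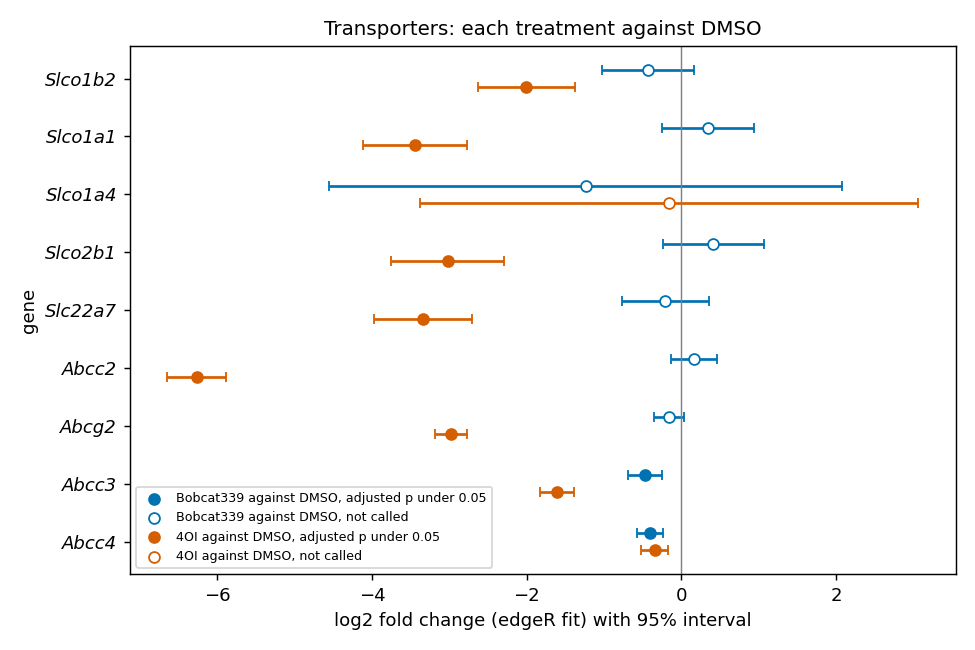
Log2 fold change of each transporter against DMSO, with its 95% interval from the edgeR fit on the horizontal axis and the genes on the vertical axis, for Bobcat339 (blue) and 4OI (orange), filled where the adjusted p is under 0.05. The 4OI points spread from -6.26 for Abcc2 to -0.16 for Slco1a4, while the only filled Bobcat339 points are Abcc3 at -0.47 and Abcc4 at -0.40.

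Among the uptake carriers, 4 of 5 fell with 4OI and none was called with Bobcat339. Slco1b2 is the mouse OATP1B gene, the counterpart of the human OATP1B carriers for statins and bilirubin conjugates. Its levels were 7.39, 4.62 and 8.33 CPM in DMSO, 4.27, 4.89 and 5.94 CPM in Bobcat339 and 2.21, 1.54 and 1.32 CPM in 4OI libraries. The 4OI libraries were all below the others, while Bobcat339 and DMSO overlapped. The fall with 4OI was 4.00-fold (log2 fold change -2.0, SE 0.28, adjusted p = 9.27e-05), and the Bobcat339 difference of -0.43 (SE 0.27) had an adjusted p of 0.315.

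Slco1a1, which carries OATP1A1, a transporter of steroid conjugates and other organic anions, had the highest mean per kilobase of the uptake carriers in every group, although in 4OI libraries it overlapped Slco1b2. It stood at 26.7, 24.9 and 41.5 CPM in DMSO, 34.7, 32.8 and 50.5 CPM in Bobcat339 and 1.798, 3.05 and 3.69 CPM in 4OI libraries. DMSO and Bobcat339 overlapped, and the 4OI libraries lay far below both. Slco1a1 was 10.9-fold lower with 4OI (log2 fold change -3.44, SE 0.30, adjusted p = 2.16e-06), with a Bobcat339 difference of 0.34 (SE 0.27, adjusted p = 0.439).

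Slco2b1, a carrier with a broad range of steroid sulphate and drug substrates, measured 4.93, 6.87 and 5.24 CPM in DMSO, 7.25, 7.45 and 8.05 CPM in Bobcat339 and 0.792, 0.336 and 0.957 CPM in 4OI libraries. Every Bobcat339 library was above every DMSO library, but the difference of 0.42 (SE 0.30, adjusted p = 0.386) was not called. With 4OI the gene was 8.12-fold lower (log2 fold change -3.02, SE 0.33, adjusted p = 1.27e-05).

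Slc22a7 encodes OAT2, a sinusoidal carrier of organic anions and nucleotide derivatives. Its level was 3.94, 3.71 and 3.55 CPM in DMSO, 3.84, 3.13 and 2.70 CPM in Bobcat339 and 0.251, 0.443 and 0.410 CPM in 4OI libraries. The DMSO and Bobcat339 ranges overlapped, and the 4OI values rested on 20, 33 and 36 deposited counts. The gene fell 10.1-fold with 4OI (log2 fold change -3.34, SE 0.29, adjusted p = 1.79e-06) and differed by -0.21 (SE 0.25, adjusted p = 0.639) with Bobcat339.

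Slco1a4, which encodes OATP1A4, a digoxin carrier in rodents, was too low for a comparison. Deposited counts were 16, 20 and 35 in DMSO, 19, 0 and 16 in Bobcat339 and 0, 4 and 78 in 4OI libraries. A single 4OI library, replicate 3, held nearly all of that group's signal, at 0.889 CPM. The 95% interval of the 4OI difference ran from -3.38 to 3.06 on the log2 scale (adjusted p = 0.930), and no difference was detectable at this depth.

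Of the canalicular exporters, Abcc2 and Abcg2 both fell with 4OI, and neither was called with Bobcat339. Abcc2, the pump for bilirubin glucuronides and glutathione conjugates, was at 717, 699 and 841 CPM in DMSO libraries. Bobcat339 libraries held 758, 834 and 931 CPM, overlapping DMSO, and 4OI libraries held 9.91, 7.82 and 11.6 CPM. The 4OI level was 76.9-fold lower than DMSO (95% interval 59.1 to 100.1, log2 fold change -6.26, SE 0.17, adjusted p = 3.06e-10), still on 582 to 1018 deposited counts a library. The Bobcat339 difference was 0.16 (SE 0.14, adjusted p = 0.476).

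Abcg2, which exports sulphate conjugates, urate and many drugs, was at 96.4, 97.3 and 111 CPM in DMSO, 83.3, 97.0 and 92.7 CPM in Bobcat339 and 12.4, 13.1 and 13.1 CPM in 4OI libraries. Its 4OI libraries lay within 1 CPM of each other and far below the rest. The fall was 7.89-fold (log2 fold change -2.98, SE 0.09, adjusted p = 6.68e-10). Against DMSO, Bobcat339 gave -0.16 (SE 0.09, adjusted p = 0.246) with overlapping libraries, a difference that was called by DESeq2 alone (-0.22, adjusted p = 0.0438).

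The basolateral exporters were the only transporters of the 9 that were called with Bobcat339. Abcc3, the exporter of glucuronides to blood, stood at 588, 615 and 497 CPM in DMSO, 448, 399 and 380 CPM in Bobcat339 and 183, 177 and 197 CPM in 4OI libraries. The 3 groups formed 3 separate steps with no overlap. Against DMSO, Abcc3 was 1.39-fold lower with Bobcat339 (log2 fold change -0.47, SE 0.10, adjusted p = 0.00658) and 3.05-fold lower with 4OI (-1.61, SE 0.10, adjusted p = 1.23e-07).

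Abcc4, which exports cyclic nucleotides and, together with glutathione, bile acids, was at 200, 214 and 180 CPM in DMSO libraries. The Bobcat339 libraries all measured 150 CPM, and the 4OI libraries 155, 152 and 160 CPM. Both treated groups lay below DMSO and close to each other. Abcc4 was 1.32-fold lower with Bobcat339 (log2 fold change -0.40, SE 0.08, adjusted p = 0.00417) and 1.27-fold lower with 4OI (-0.35, SE 0.08, adjusted p = 0.00227). Without Bobcat339 replicate 1, whose intestinal marker sum stood apart, Abcc3 gave -0.54 and Abcc4 -0.40 with Bobcat339, both still called. Both falls of Abcc4 kept an adjusted p under 0.05 in every alternative fit, the highest being 0.0229 for Bobcat339 and 0.0124 for 4OI.

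The difference between the treatments was tested directly. Against Bobcat339, 7 of the 9 transporters were lower with 4OI and none was higher, beside 31.3% of all genes that were lower, 30.9% that were higher and 62.2% called in either direction. Abcc2 again had the widest gap of the 9, at -6.43 (SE 0.17, adjusted p = 2.35e-10), followed by Slco1a1 at -3.79 (SE 0.31, adjusted p = 1.10e-06). The gap of Abcc3 was -1.14 (SE 0.10, adjusted p = 1.95e-06). Abcc4 differed by 0.05 (SE 0.08, adjusted p = 0.564), with a 95% interval from -0.11 to 0.22, although its 4OI libraries all lay above its Bobcat339 libraries. For this comparison 8 of 9 genes had groups that did not overlap, beside 68.9% of all genes.

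The order of the mRNAs was also read in the treated libraries. In Bobcat339 libraries Abcc2 stood first at 98.6 ± 10.2 CPM per kilobase, above Abcc3 at 71.8 ± 6.20 with no overlap, but the pair overlapped in DMSO, where replicate 3 also had Abcc2 above Abcc3, so no change of order was shown. Among the lower ranks only the neighbours Slc22a7 and Slco2b1 overlapped. In 4OI libraries Abcc3 (32.6 ± 1.83) and Abcc4 (24.4 ± 0.650) led, and Abcg2 (1.58 ± 0.0507) was above Abcc2 (1.15 ± 0.222). All 5 uptake carriers were below 1 CPM per kilobase in every 4OI library, from 0.539 ± 0.182 for Slco1a1 to 0.0490 ± 0.0777 for Slco1a4. There Slco1a1 overlapped Slco1b2, Slc22a7 overlapped Slco2b1, and Slco2b1 overlapped Slco1a4.

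As shares of the summed signal per kilobase of the 9 genes, the basolateral exporters made up 54.1% ± 5.24 in DMSO, 44.1% ± 4.00 in Bobcat339 and 93.5% ± 0.384 in 4OI libraries. The canalicular exporters made up 41.8% ± 4.42, 50.7% ± 3.55 and 4.46% ± 0.156 in the same order. The uptake carriers held 4.17% ± 0.818, 5.21% ± 0.696 and 2.00% ± 0.274. With 4OI, Abcc3 alone held 53.5% and Abcc4 40.03%, while Abcc2 went from 36.6% in DMSO to 1.87%.

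**Figure D3:**
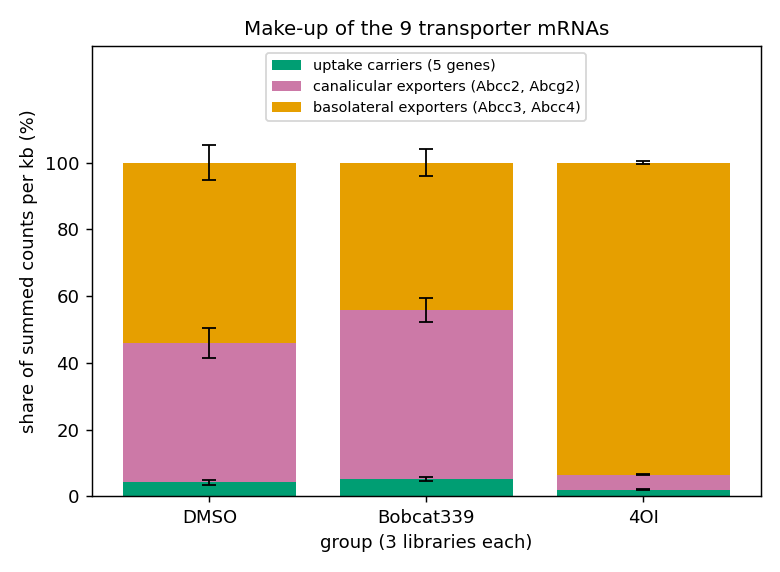
Share of the summed counts per kilobase of the 9 transporter mRNAs held by uptake carriers, canalicular exporters and basolateral exporters, in percent, as stacked means of 3 libraries per group with error bars of 1 SD. The canalicular share is 41.8% in DMSO, 50.7% in Bobcat339 and 4.46% in 4OI libraries.

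Ratios taken within a library do not depend on how libraries are scaled to each other. Like the shares above, they can still depend on the mix of cells. Hepatocyte markers summed to 2504 to 2757 CPM in 4OI libraries, against 38205 to 39100 in DMSO. The part of the cell mix in the shares and ratios was not tested. The ratio of Abcc3 to Abcc2, per kilobase, was 1.23, 1.32 and 0.885 in DMSO, 0.885, 0.717 and 0.611 in Bobcat339 and 27.7, 34.0 and 25.5 in 4OI libraries. It was 25.6-fold higher with 4OI than with DMSO. The ratio of Abcc4 to Abcc2 was 0.356 ± 0.0639 in DMSO and 21.8 ± 3.82 in 4OI, 61.3-fold apart. That of Abcg2 to Abcc2 was 0.141 ± 0.00403 and 1.41 ± 0.301, 9.86-fold apart. Within the basolateral pair, Abcc4 to Abcc3 was 0.312 ± 0.00909 in DMSO and 0.748 ± 0.0218 in 4OI. The summed basolateral to canalicular ratio was 1.31 ± 0.252 in DMSO, 0.877 ± 0.143 in Bobcat339 and 20.99 ± 0.801 in 4OI. In all 5 ratios the 4OI libraries did not overlap either other group. The exact two-sided permutation test gave p = 0.1 each time, the smallest that 3 against 3 allows (0.125 after adjustment over 15 ratio comparisons). All ratios but Abcc4 to Abcc3 have Abcc2 in the denominator, so they are not separate results. For Bobcat339 against DMSO the exact p was 0.1 for Abcc4 to Abcc2 (0.240 ± 0.0242 in Bobcat339) and for Abcg2 to Abcc2 (0.114 ± 0.00882), 0.2 for Abcc3 to Abcc2 and for the summed ratio, and 0.4 for Abcc4 to Abcc3.

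The falls of the transporters were set beside those of the 16 hepatocyte markers, of which 15 fell with 4OI, beside 30.4% of all genes. The markers had a median log2 fold change of -3.17 and a range from -5.96 to -0.69. None of the 16 markers had a larger fall than Abcc2. Slco1a1, Slc22a7, Slco2b1 and Abcg2 lay near the marker median, differing from it by -0.27 for Slco1a1 to 0.19 for Abcg2. Slco1b2 and Abcc3 had smaller falls than 15 of the 16, and Abcc4 than all 16, its log2 fold change being 2.82 above the median. Slco1a4 was too low to be placed. These are places within a list, not tests.

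**Figure D4:**
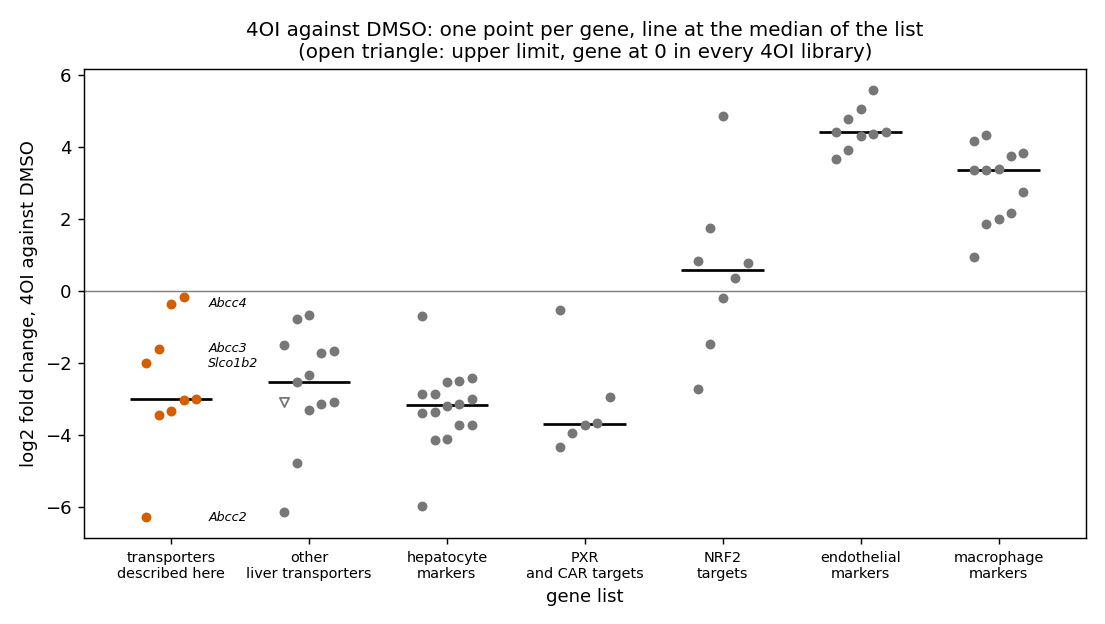
Log2 fold change with 4OI against DMSO, on the vertical axis, for single genes of 7 lists on the horizontal axis, with a line at the median of each list and an open triangle for a gene at 0 in all 4OI libraries, drawn at its upper limit. Abcc2 lies below every hepatocyte marker and Abcc4 above every one, while the endothelial and macrophage markers lie above 0.

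Of 13 other liver transporters, 12 fell with 4OI and none rose, beside 30.4% and 33.3% of all genes. Their median log2 fold change with 4OI was -2.52. None of the 13 was called with Bobcat339, beside 20.7% of all genes. Slc10a1, the sodium-dependent bile acid uptake carrier, went from 13.9 ± 1.86 CPM in DMSO to 2.43 ± 0.629 in 4OI (log2 fold change -2.52, SE 0.19). Abcb11, the bile salt export pump, went from 20.8 ± 4.21 to 2.48 ± 0.343 CPM (-3.07, SE 0.20). Abcc6 fell 27.4-fold and Abcb4, the phospholipid floppase of bile, 3.17-fold. With Bobcat339 the values of Slc10a1 and Abcb11 were 14.6 ± 0.114 and 21.5 ± 4.02 CPM, differences of 0.07 and 0.05 that were not called.

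Of 8 other Slco genes, 6 were tested, and with 4OI 2 rose and 2 fell, close to the 33.3% and 30.4% of all genes that did. Slco3a1, an OATP expressed in many tissues, rose 20.2-fold, from 3.09 ± 0.144 CPM in DMSO to 62.5 ± 2.53 with 4OI. It also rose with Bobcat339, to 5.50 ± 0.334 CPM (log2 fold change 0.83, SE 0.10). No other gene of the 6 was called with Bobcat339, beside 20.7% of all genes that were. Slco4a1 rose from 0.209 ± 0.0650 to 5.09 ± 0.613 CPM with 4OI. Slco2a1, the prostaglandin carrier, fell 3.98-fold.

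Of 12 other Abcc and Abcg genes, 5 rose and 4 fell with 4OI, beside 33.3% and 30.4% of all genes. Abcc1, the glutathione conjugate pump MRP1, went from 83.7 ± 5.74 to 602 ± 12.8 CPM (log2 fold change 2.85, SE 0.08). Abcc5, an exporter of cyclic nucleotides, rose 6.05-fold. Abcc12, named after its values were seen, went the other way, from 25.1 ± 1.53 to 0.209 ± 0.170 CPM (log2 fold change -6.89, SE 0.37). With Bobcat339, 3 of the 12 fell and none rose, beside 9.06% and 11.6% of all genes. The 3 that fell were Abcc9, the regulatory subunit SUR2 of a potassium channel (3.21-fold), the sterol exporter Abcg1 (2.62-fold) and Abcg3 (9.54-fold, with 1 library at 0). With 4OI, Abcc9 went from 1.38 ± 0.198 to 8.96 ± 0.870 CPM and Abcg1 from 6.51 ± 0.775 to 124 ± 4.90 CPM, both called, while Abcg3 differed by 1.17 (SE 0.63, adjusted p = 0.128). The macrophage marker Adgre1 stood at 58.3 ± 1.59 CPM in DMSO, 11.02 ± 2.41 in Bobcat339 and 595 ± 3.84 in 4OI, and the part of macrophage RNA in these values was not tested.

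Of 15 other Slc22 genes, 11 were tested. Among these, 2 rose and 8 fell with 4OI, beside 33.3% and 30.4% of all genes. None was called with Bobcat339, beside 20.7% of all genes. Slc22a18 fell 10.3-fold and Slc22a23 2.88-fold. Abcc6, Abcg5 and Abcg8 are among the genes that stand in 2 of these lists. Abcg5, Slco1a6 and Slc22a27 were at 0 in all 4OI libraries. Abcg5 was at least 8.38-fold, Slc22a27 at least 5.56-fold and Slco1a6 at least 1.30-fold lower than in DMSO, against a floor of 12 deposited counts per library, which carries the same assumption.

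Of 14 regulators known to act on these genes, 6 rose and 6 fell with 4OI, beside 33.3% and 30.4% of all genes. PXR (Nr1i2), the drug-sensing receptor, was at 8.34 ± 0.534 CPM in DMSO, 3.04 ± 0.176 in Bobcat339 and 0.311 ± 0.293 in 4OI, a fall of 4.71 on the log2 scale with 4OI (SE 0.72, adjusted p = 0.000179), while the Bobcat339 difference of -1.45 (SE 0.61) had an adjusted p of 0.127. The bile acid receptor FXR (Nr1h4) fell 12.9-fold with 4OI. CAR (Nr1i3) was at most 1.33 CPM in every library and was not called. NRF2 (Nfe2l2) rose 2.09-fold and its partner Keap1 1.35-fold with 4OI. With Bobcat339 only Hnf4a, a fall, and the aryl hydrocarbon receptor Ahr, a rise of 1.61-fold, were called among the 14, beside 20.7% of all genes.

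All 6 listed targets of PXR and CAR fell with 4OI, beside 30.4% of all genes. Among the 6 were Cyp2c29 (15.3-fold), the carboxylesterase Ces2a (13.2-fold) and the glutathione transferase Gstm1 (7.74-fold). Only Cyp2c29 of the 6 was called with Bobcat339, as a rise of 1.24-fold, beside 11.6% of all genes that rose. Of 8 listed NRF2 targets, 5 rose and 2 fell with 4OI, beside 33.3% and 30.4% of all genes. Gclm, a subunit of the first enzyme of glutathione synthesis, rose 3.37-fold, and the glutathione transferase Gsta4 fell 6.60-fold. Of the same 8, 3 rose and 1 fell with Bobcat339, beside 11.6% and 9.06% of all genes. Srxn1, which repairs peroxiredoxins, was 1.43-fold and Txnrd1, a thioredoxin reductase, 1.31-fold higher. Abcc2, Abcc3 and Abcc4, known NRF2-responsive genes in the liver, fell with 4OI in the same libraries. The part of NRF2 or of the cell mix in these values was not tested.

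Of 5 proteins that anchor transporters at the membrane, 2 rose and 2 fell with 4OI, beside 33.3% and 30.4% of all genes. Msn, the anchor moesin known from endothelial and blood cells, rose 6.27-fold, and Ezr (ezrin) 2.77-fold. Pdzk1, a scaffold of organic anion carriers in the hepatocyte membrane, fell 12.4-fold. With Bobcat339, Ezr (1.68-fold) and Msn (1.41-fold) fell, beside 9.06% of all genes, and the other 3 were not called. In the same 4OI libraries the endothelial marker Cdh5 went from 37.8 ± 2.80 to 1247 ± 48.6 CPM, and its part in the Msn and Ezr values was not tested.

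Among 12142 genes with a mean of at least 1 CPM, those whose centred log2 levels over the 9 libraries were nearest to Abcc2 were Sall1 (root mean square difference 0.13), Foxa2 (0.23) and Dsp (0.23). Sall1, a zinc finger factor, was at 55.7 ± 2.19 CPM in DMSO, 56.8 ± 1.30 in Bobcat339 and 0.667 ± 0.119 in 4OI. Foxa2, a liver transcription factor, went from 24.1 ± 2.22 through 22.6 ± 1.70 to 0.244 ± 0.0311 CPM. Dsp, the desmosome protein desmoplakin, went from 385 ± 20.6 through 513 ± 81.3 to 5.39 ± 0.978 CPM. Each of the 3 fell with 4OI and was not called with Bobcat339, the same calls as those of Abcc2. The 3 were picked for their nearness to Abcc2 in these same 9 libraries. The shared calls therefore follow from the choice and are no separate result.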

How the data were processed

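RNA from 9 libraries, 3 per group, was measured by RNA sequencing. The authors deposited 1 table of values per gene in whole numbers, unscaled, which were treated here as estimated counts, since 43.7% to 45.6% of values from 4 to 40 in a library were multiples of 4, against 27.0% if spread evenly. The submitters' processing notes list HISAT2 2.0.5, featureCounts 1.5.0-p3 and CASAVA 1.8. Genome build, annotation, strand setting and the handling of shared reads: not given in the sources used here. Genes with no symbol held 0.217% to 0.490% of the counts.

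The 18379 genes left by filterByExpr went into edgeR 4.0.16 under R 4.3.3 (scaling by TMM, 1 quasi-likelihood fit over the 9 libraries, two-sided tests, Benjamini-Hochberg adjustment over all genes, calls at an adjusted p under 0.05). The biological coefficient of variation was 0.240. Ratios were compared by exact permutation in SciPy 1.17.1. The script was tested on simulated data. Intervals and floors cover counting error or the spread between libraries only.

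The 9 genes, the lists and the tests were chosen with earlier results of these data known. Of each list up to 3 called genes with the smallest adjusted p in each treatment were named, or, where none was called, the gene with the highest mean CPM; Slc10a1, Abcb11, Nr1i2, Nr1i3, Nr1h4, Nfe2l2, Keap1, Cdh5 and Adgre1 were always taken, and Alb was not described again. Some genes that this rule takes are not reported here. The genes nearest to the member with the largest fall were named from genes with a mean of at least 1 CPM, leaving out clone names and predicted genes, with log2 CPM at a prior count of 2. Lists are described by counts and medians, with no test of a list. Abcc12, Abcg5, Slc22a27, Slco1a6 and the genes standing in 2 lists were named after their values were seen. Alternatives were DESeq2 1.42.0, RLE scaling, library size only, no filter, a filter of 1 CPM in 3 libraries, a fit on the 6 libraries of a comparison, a block for the replicate number, values divided by 4, and each library left out in turn. No sequence or coordinate was taken from the deposited table. Promoter windows come from RefSeq.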

Additional observations from a re-analysis of the deposited data

How the results depend on the processing

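Of 453 alternative values for the 27 results of single transporters, 447 kept their direction and their side of the threshold. The exceptions were Abcg2 with Bobcat339, called under DESeq2 alone at -0.22, and 5 changes of sign among differences that were never called. Slco1a4 for 4OI against DMSO became 0.23 without DMSO replicate 3, 0.42 without 4OI replicate 1 and 0.33 without 4OI replicate 2, in a leave-one-out range of -3.66 to 0.42. For 4OI against Bobcat339 it became -2.42 without 4OI replicate 3, in a range of -2.42 to 1.65. Abcc4 for 4OI against Bobcat339 became -0.053 with no filter. The cause was not tested. The number of transporters that fell stayed at 2, 8 and 7 for Bobcat339 against DMSO, 4OI against DMSO and 4OI against Bobcat339 in every alternative except DESeq2, which gave 3 for the first. Slco1a4 was not tested under the 1 CPM filter or with values divided by 4, which left 8 transporters.

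Over all genes, those called lower with Bobcat339 numbered 2616 under DESeq2 against 1666. Leaving out 1 library gave 1380 to 2370 genes higher and 1046 to 1860 lower; the highest were without DMSO replicate 3 and Bobcat339 replicate 1, the lowest without DMSO replicate 1, and those without Bobcat339 replicate 2 were 1421 and 1064. Without DMSO replicate 2 they were 1491 and 1102. Pairing of the samples by replicate number was neither shown nor excluded. Correlations of deviations ran from -0.03 to 0.10 for same-numbered libraries and from -0.12 to 0.06 for others. The highest were between same-numbered libraries, and 6 of 9 libraries correlated best with their own number. With the replicate number as a block, 2336 genes were higher and 1744 lower with Bobcat339, and no call of a transporter changed. Depth limits Slco1a4 most, at 0 to 78 deposited counts a library.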

Other observations

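Genes were grouped by the number of CpG in the 250 bases before their start, as a description and with no test. The classes hold only a part of the 18379 genes tested. Of 1220 tested genes with 0 to 3 CpG, 3.44% rose and 14.9% fell with Bobcat339, with a median log2 fold change of -0.26. Of 6633 with 10 or more, 17.0% rose and 8.35% fell, with a median of 0.04. The 1807 genes in between stood between them, at 7.08% and 12.7%. With 4OI, 30.8% of the genes with 0 to 3 CpG rose and 40.1% fell (median -0.38). Of the genes in between, 35.6% rose and 32.5% fell (median 0.08). Of those with 10 or more, 36.8% rose and 32.0% fell (median 0.09). A lower median in the class with fewest CpG was seen with both treatments, which share their DMSO libraries. With 4OI the middle class lay close to the class with most CpG, unlike with Bobcat339. Abcc4, with 35 CpG in 1 window and 4 in the other, fell with Bobcat339, and so did Abcc3, which had no window. Not called were Slco1b2 and Slco1a1, with 0, and Abcc2, with 1. Slco2b1, with 2, 3 and 4 in its windows, and Abcg2, with 3, 10 and 23, were not called either. A link of CpG number to these calls was not tested. The classes also differ in the genes they hold and were not matched for level, and the part of level or cell type in these shares was not tested.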
